A study of Mus musculus with 188 samples.

Results

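The matrix metalloproteases, the ADAM and ADAMTS proteases and their tissue inhibitors (TIMPs) were followed in aortas of 94 inbred and recombinant inbred mouse strains. They were taken as every gene whose only annotated symbol starts with Mmp, with Adamts, or with Adam and a number, plus Timp1, Timp2 and Timp3, and each was read from its brightest probe set, the one with the highest mean over all arrays. This gave 54 genes of 11725 named ones, measured by 81 of 22327 probe sets: 18 MMPs, 3 TIMPs, 7 ADAMTS proteases, the ADAMTS-like gene Adamtsl4 and 25 ADAMs. Total RNA from aorta was hybridised to an Affymetrix mouse array, and every value given here is a log2 intensity after the robust multi-array average (RMA) procedure, so that a difference of 1 is a doubling of signal. The series was designed for genetic mapping of aortic expression, and the comparison it makes is between strains.

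All mice were males of 16 weeks on a chow diet, labelled wild-type, with no treatment in the labels. The recombinant inbred strains come from 3 crosses to C57BL/6J. The AXB/BXA family, with A/J as the other parent, had 28 strains on 59 arrays, the BXD family, with DBA/2J, had 28 strains on 53 arrays, and the BXH family, with C3H/HeJ, had 10 strains on 21 arrays. The other 28 strains, on 55 arrays, were classical inbred strains, the 4 parents among them. BXD24/TyJ-Cep290<rd16>/J and BXD29-Tlr4<lps-2J>/J carry the mutant alleles in their names, despite that label. Most strains, 79 of them, had 2 arrays, 9 strains had 1, and 3 strains each had 3 or 4. The 2 arrays of BXD32/TyJ carry a suffix in their descriptions that the labels do not explain and were left out, which leaves 93 strain means and 84 strains with replicate arrays. The labels do not say whether the arrays of a strain are separate mice, so the p-values measure the spread between arrays, which may be technical, and the small number of arrays per strain limits the precision.

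MMPs are zinc proteases that are made as inactive proforms and cut collagens, elastin, proteoglycans and one another. TIMPs block them by sitting in the active site, and Timp3 also blocks several ADAM and ADAMTS enzymes. ADAMs are mostly membrane proteins that shed the outer parts of cytokines, growth factors and receptors, while ADAMTS enzymes are secreted and cut the large proteoglycans, such as versican and aggrecan, that hold water in the vessel wall. Turnover of elastin, collagen and proteoglycan by these families is a recognised part of arterial remodelling, aneurysm and plaque growth.

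The upstream sequence of the MMP genes that lie side by side on chromosome 9 held other short motifs than that of most other members, and 5 promoters are shown so that this can be seen. In the RefSeq annotation of GRCm38.p6 the order is Mmp13, Mmp12, Mmp1b, Mmp3, Mmp1a, Mmp10, Mmp8, Mmp27, Mmp20 and Mmp7, between Dcun1d5 and Tmem123, and 9 of these 10 genes were measured. Each window runs from 250 bases before to 50 bases after the annotated start, is read 5′ to 3′ along the gene and comes from RefSeq, build GRCm38.p6. Capitals mark matches on either strand to 3 motifs. The AP-1 site was searched as TGANTCA. The TATA box was searched as TATAAA. The GC box was searched as GGGCGG and stands reverse-complemented in Timp3. Mmp3 and Mmp12 are the genes of this run with a strain effect, and Mmp13 is a neighbour that did not pass the test for one. Timp3 and Adamts1 lie elsewhere and also differed between strains.
Mmp3, chr9:7445572-7445871, plus strand: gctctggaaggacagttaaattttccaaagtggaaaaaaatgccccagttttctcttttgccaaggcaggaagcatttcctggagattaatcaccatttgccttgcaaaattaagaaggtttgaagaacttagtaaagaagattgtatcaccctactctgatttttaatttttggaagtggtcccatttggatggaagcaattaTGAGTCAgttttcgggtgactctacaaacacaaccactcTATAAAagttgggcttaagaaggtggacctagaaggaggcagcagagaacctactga
Mmp12, chr9:7347124-7347423, plus strand: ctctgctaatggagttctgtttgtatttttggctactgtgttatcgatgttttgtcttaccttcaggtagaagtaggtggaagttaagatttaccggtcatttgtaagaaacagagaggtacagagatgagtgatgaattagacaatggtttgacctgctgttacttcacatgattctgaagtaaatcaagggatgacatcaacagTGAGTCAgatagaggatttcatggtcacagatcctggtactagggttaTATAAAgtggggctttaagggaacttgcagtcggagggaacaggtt
Mmp13, chr9:7272264-7272563, plus strand: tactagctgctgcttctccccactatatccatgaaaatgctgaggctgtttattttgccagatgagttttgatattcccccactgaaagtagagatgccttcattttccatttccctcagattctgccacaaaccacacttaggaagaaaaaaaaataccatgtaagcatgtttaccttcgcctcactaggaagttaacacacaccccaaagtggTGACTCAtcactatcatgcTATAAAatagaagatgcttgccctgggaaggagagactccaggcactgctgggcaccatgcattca
Timp3, chr10:86300162-86300461, plus strand: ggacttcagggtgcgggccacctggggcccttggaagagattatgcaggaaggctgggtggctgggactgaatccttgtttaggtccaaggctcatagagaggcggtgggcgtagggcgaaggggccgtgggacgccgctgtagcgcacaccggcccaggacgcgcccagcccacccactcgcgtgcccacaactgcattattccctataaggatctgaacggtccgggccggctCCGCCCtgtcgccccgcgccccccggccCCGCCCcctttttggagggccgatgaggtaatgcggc
Adamts1, chr16:85803064-85803363, minus strand: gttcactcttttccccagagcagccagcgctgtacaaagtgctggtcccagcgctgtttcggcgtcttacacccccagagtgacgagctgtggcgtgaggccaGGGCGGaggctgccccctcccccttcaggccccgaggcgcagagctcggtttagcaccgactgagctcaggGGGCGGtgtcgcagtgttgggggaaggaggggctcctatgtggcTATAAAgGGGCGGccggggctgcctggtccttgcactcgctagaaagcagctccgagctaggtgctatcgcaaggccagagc

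Promoter entries were at hand for 30 of the 54 genes, 35 windows in all; Mmp2 was not among them. The AP-1 letters stood in the windows of 8 of the 9 measured chromosome 9 genes, Mmp8 being the one without, and the TATA letters in all 9. The GC box stood in none of the 9, and Mmp12 has a second annotated start whose window held none of these 3 motifs. Among the other 21 members with an entry, 3 had the AP-1 letters, 1 had the TATA letters (Adamts1) and 14 had the GC box. Of all 32851 RefSeq windows of this length, 7.81% held the AP-1 letters, 13.6% the TATA letters and 35.7% the GC box. In Mmp3 the AP-1 letters covered positions -46 to -40 from the start and in Mmp12 -44 to -38, while in Mmp13 they covered -35 to -29. The TATA letters covered -7 to -2 in Mmp3, 5 to 10 in Mmp12, past the start, and -16 to -11 in Mmp13. All these positions depend on the annotated start. These are matches of letters only. Of the 9 neighbours, 2 differed between strains in the aorta, Mmp3 and Mmp12, beside 46.5% of all probe sets. The other 7 did not pass the test. Their signal was low, with means between 2.96 for Mmp13 and 3.85 for Mmp7. Of all probe sets below the median of the probe set means, 23.0% passed.

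The strain effect was tested with limma's moderated F test over all probe sets, in 177 arrays of the 84 replicated strains, and a gene is called when its Benjamini-Hochberg adjusted p is under 0.05. Of the 54 genes, 22 were called (23 at an unadjusted p under 0.05, as were 12181 of all probe sets), beside 46.5% of all probe sets and 48.8% of all genes at their brightest probe set, so that the share among the members was no higher than the background. The call followed the level. Of the 19 members at or above the median of all probe set means, 18 were called, Adam19 being the exception with an adjusted p of 0.185 in limma's test, beside 70.0% of all probe sets there. Of the 35 members below that median, 4 were called (Mmp11, Mmp12, Mmp17 and Mmp19), beside 23.0%. By class, all 3 TIMPs, 4 of 7 ADAMTS genes, Adamtsl4, 8 of 18 MMPs and 6 of 25 ADAMs were called. The size of the effect is given as the intraclass correlation, the share of array-to-array variance that lies between strains: its median was 0.133 over the members and 0.182 over all probe sets.

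**Figure D1:**
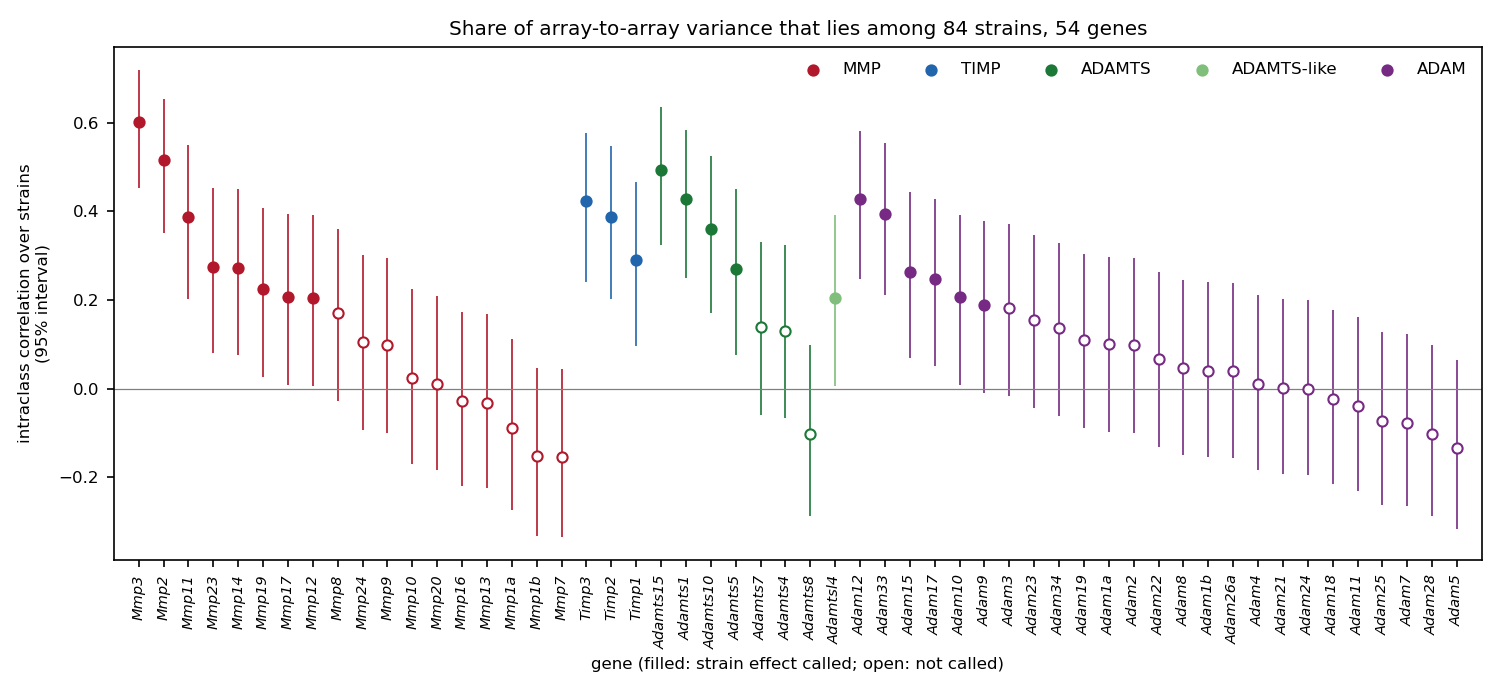
Intraclass correlation over 84 strains (vertical axis, no unit, bars: 95% interval) of the 54 genes, grouped by class and ordered within it; filled points passed limma's test. Mmp3 stands highest at 0.601, all 3 TIMPs are filled, and most ADAMs are open with intervals that include 0.

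In the plot of intraclass correlations the open points include many genes best known from other tissues, among them the sperm, testis and epididymis ADAMs (Adam1a, Adam1b, Adam2, Adam3, Adam4, Adam5, Adam7, Adam18, Adam21, Adam24, Adam25, Adam26a and Adam34), the enamel protease Mmp20, the epithelial matrilysin Mmp7 and the collagenases Mmp1a, Mmp1b and Mmp13. Adam3 had the highest value among them, 0.182, with an adjusted p of 0.0997 in limma's test.

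Among the secreted MMPs, Mmp3 (stromelysin-1, which cuts proteoglycans, laminin and fibronectin and activates other MMPs) differed most between strains. Its values were 8.36 and 7.84 in BTBR T<+> tf/J and 3.63 and 3.27 in KK/HlJ, the highest and lowest strains, which are 4.65 apart on the log2 scale. The arrays within each of these strains lie close together, and the array median over the panel was 5.43. The intraclass correlation was 0.601 (95% interval 0.453 to 0.718), with an adjusted p of 7.13e-10 in limma's test. Without BTBR T<+> tf/J it was 0.557 and without KK/HlJ 0.574. A probe set can also bind less well where a strain carries a sequence difference under its probes, and this was not tested.

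Mmp2 (gelatinase A, which cuts denatured collagen and basement membrane collagen) was the next of the MMPs, with an intraclass correlation of 0.516 (0.351 to 0.653) and an adjusted p of 3.7e-07 in limma's test. Its strain means were 9.27 ± 0.37 in CBA/J, the highest, and 7.22 ± 0.32 in RIIIS/J, the lowest (SD, n = 2 each), a 4.13-fold range. The median strain mean was 8.13 in AXB/BXA, 8.28 in BXD and 7.91 in BXH, against 8.71 in the inbred strains, and the ranges of the families overlap widely. Mmp14 (MT1-MMP, the membrane protease that activates pro-MMP2 in a complex with TIMP2) had 6.92 and 6.60 in BTBR T<+> tf/J and 5.39 and 5.11 in BXH22/KccJ. Its intraclass correlation was lower, 0.271 (0.0759 to 0.45), and its second probe set was not called.

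Mmp11 (stromelysin-3, an MMP that furin activates inside the cell) was a low gene with a clear strain effect, an intraclass correlation of 0.388. BXD8/TyJ had 5.42 and 5.84, the highest strain mean, and AXB19/PgnJ had 3.42 and 3.71, the lowest. BXD42/TyJ shows the spread that arrays of a strain can have, with 4.56 and 6.28. Mmp23 (a small membrane-anchored MMP) had 8.03 and 7.92 in BTBR T<+> tf/J and 4.71 and 4.78 in RIIIS/J, an intraclass correlation of 0.275. Mmp17 (MT4-MMP, held by a lipid anchor), with 6.16 and 5.89 in BTBR T<+> tf/J, and Mmp19 were called more weakly, at intraclass correlations of 0.207 and 0.224.

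The MMPs of white blood cells behaved differently, with single arrays far above a low panel. Mmp12 (macrophage elastase) was between 3.04 and 8.75 over the arrays, with a median of 3.49. The highest strain mean was that of BXA7/PgnJ, whose 2 arrays had 8.75 and 3.60, so that one array alone put it there. The macrophage marker score (the mean of centred log2 values of marker genes) was 0.52 and 0.51 in these arrays, nearly equal, while Dntt, a gene of immature thymocytes, was 2.91 and 10.59; the part of either in the Mmp12 value was not tested. Without BXA7/PgnJ the intraclass correlation of Mmp12 was 0.457 in place of 0.204, and its adjusted p 1.94e-05 in place of 0.0385 in limma's test. Other strains had less extreme and more even values: 4.66 and 4.75 in BXD9/TyJ and 5.57 and 4.34 in BXH19/TyJ.

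Mmp9 (gelatinase B) and Mmp8 (neutrophil collagenase) were not called, with adjusted p of 0.21 and 0.0899 in limma's test. The highest value of both was in the same array: BXH2/TyJ replicate 1 had 7.34 for Mmp9 and 5.22 for Mmp8, and replicate 2 had 3.55 and 3.59. The neutrophil marker score of these arrays was 3.78 in replicate 1, the highest of the panel, and 1.76 in replicate 2, beside a median of -0.19; its part in the 2 genes was not tested. Without BXH2/TyJ the intraclass correlation of Mmp8 was -0.04. Adam8, another myeloid gene, was 5.23 in BXH2/TyJ replicate 1 and 3.10 in replicate 2, and it was not called (adjusted p of 0.377 in limma's test).

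All 3 measured TIMPs differed between strains. Timp3, the inhibitor that binds to the matrix, had 10.76 and 11.20 in BXH19/TyJ and 8.83 and 8.27 in RIIIS/J, a 5.4-fold range of strain means, with an intraclass correlation of 0.422 and an adjusted p of 5.18e-05 in limma's test. Timp2, which also takes part in the activation of pro-MMP2, had 10.72 and 10.65 in BALB/cJ and 9.11 and 8.37 in RIIIS/J, with 0.387. Timp1, the inducible member of the group, had 6.55 and 7.21 in BTBR T<+> tf/J and 4.27 and 3.78 in BXD28/TyJ, with 0.29. Timp1 also varied within strains: AXB19b/PgnJ had 7.61, the highest value of the panel, in replicate 1 and 4.16, 5.08 and 4.25 in the others. Of the 3 further Timp3 probe sets 1 was called, and of the 4 further Timp2 probe sets all 4.

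Among the ADAMTS genes, Adamts15 (a protease that cuts versican) had the highest intraclass correlation, 0.494 (0.325 to 0.636), with 6.85 and 7.66 in C58/J and 4.21 and 4.37 in RIIIS/J. Adamts1, which cuts versican and aggrecan, had 9.43 and 6.82 in NOD/ShiLtJ, the highest strain mean, and 4.73 and 4.21 in RIIIS/J, with 0.428; the higher NOD/ShiLtJ array is the highest of the panel and the lower one is nearer to the panel's median of 6.21. Adamts5, the main aggrecanase of mouse cartilage and a versican-cutting enzyme of the vessel wall, had 7.34 and 7.69 in BXD38/TyJ and 5.37 and 4.67 in RIIIS/J, with 0.271. Adamts1 and Adamts5 are next to each other on chromosome 16. Adamts10, which binds fibrillin-1, had a narrow range of strain means, with 6.85 and 7.20 in AKR/J and 5.63 and 5.65 in SM/J. Its intraclass correlation was 0.36. Not all replicates lay close: BXD42/TyJ had 7.99, the highest value of the panel, and 5.67. Adamtsl4, a fibrillin-binding relative that has no protease domain, ran between 7.06 in BXH2/TyJ and 4.23 in RIIIS/J, with 0.204, and lost the call without either of them (adjusted p of 0.118 without BXH2/TyJ and 0.122 without RIIIS/J in limma's test). Adamts4, Adamts7 and Adamts8 were low and not called.

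Of the ADAMs, Adam12 (meltrin alpha, found in embryonic muscle and in remodelling tissue) had the widest range, 15.1-fold. BXA11/PgnJ averaged 8.75 ± 0.03 and AXB1/PgnJ 4.83 ± 0.24 (SD, n = 2 each), strains of one family, and the intraclass correlation was 0.427. Adam33, a gene of smooth muscle and fibroblasts, had 6.00 and 6.49 in BXH19/TyJ and 3.96 and 4.59 in BXD20/TyJ, with 0.394. Adam15, which carries an integrin-binding sequence in human, ran between 8.36 in BXD24/TyJ-Cep290<rd16>/J and 5.79 in RIIIS/J, with 0.264.

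The sheddases Adam10 (which cuts Notch receptors and cadherins), Adam17 (the TNF-converting enzyme) and Adam9 had the least strain-bound variance of the called ADAMs. This holds only for the brightest probe sets, at 0.206, 0.247 and 0.189. The dimmer probe sets had 0.330 and 0.327 for Adam10 and 0.357 and 0.324 for Adam17. Those of Adam15 had 0.306, 0.233 and 0.071, and Adam9 has no other. Both Adam10 and Adam17 were highest in RIIIS/J, where Adam10 had 7.65 and 7.59 and Adam17 had 8.12 and 8.52. At the other end, arrays of a strain disagreed: KK/HlJ had 3.65 and 6.01 for Adam10 and 4.36 and 7.27 for Adam9, and AXB23/PgnJ had 7.38 and 3.22 for Adam17. The gap of 4.15 between those AXB23/PgnJ arrays is the largest gap between replicates seen for Adam17. Adam9 lost its call under 14 of 27 alternative settings, more than any other called member. The loss without A/J and the loss without C3H/HeJ are each 1 fit counted 2 times there.

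**Figure D2:**
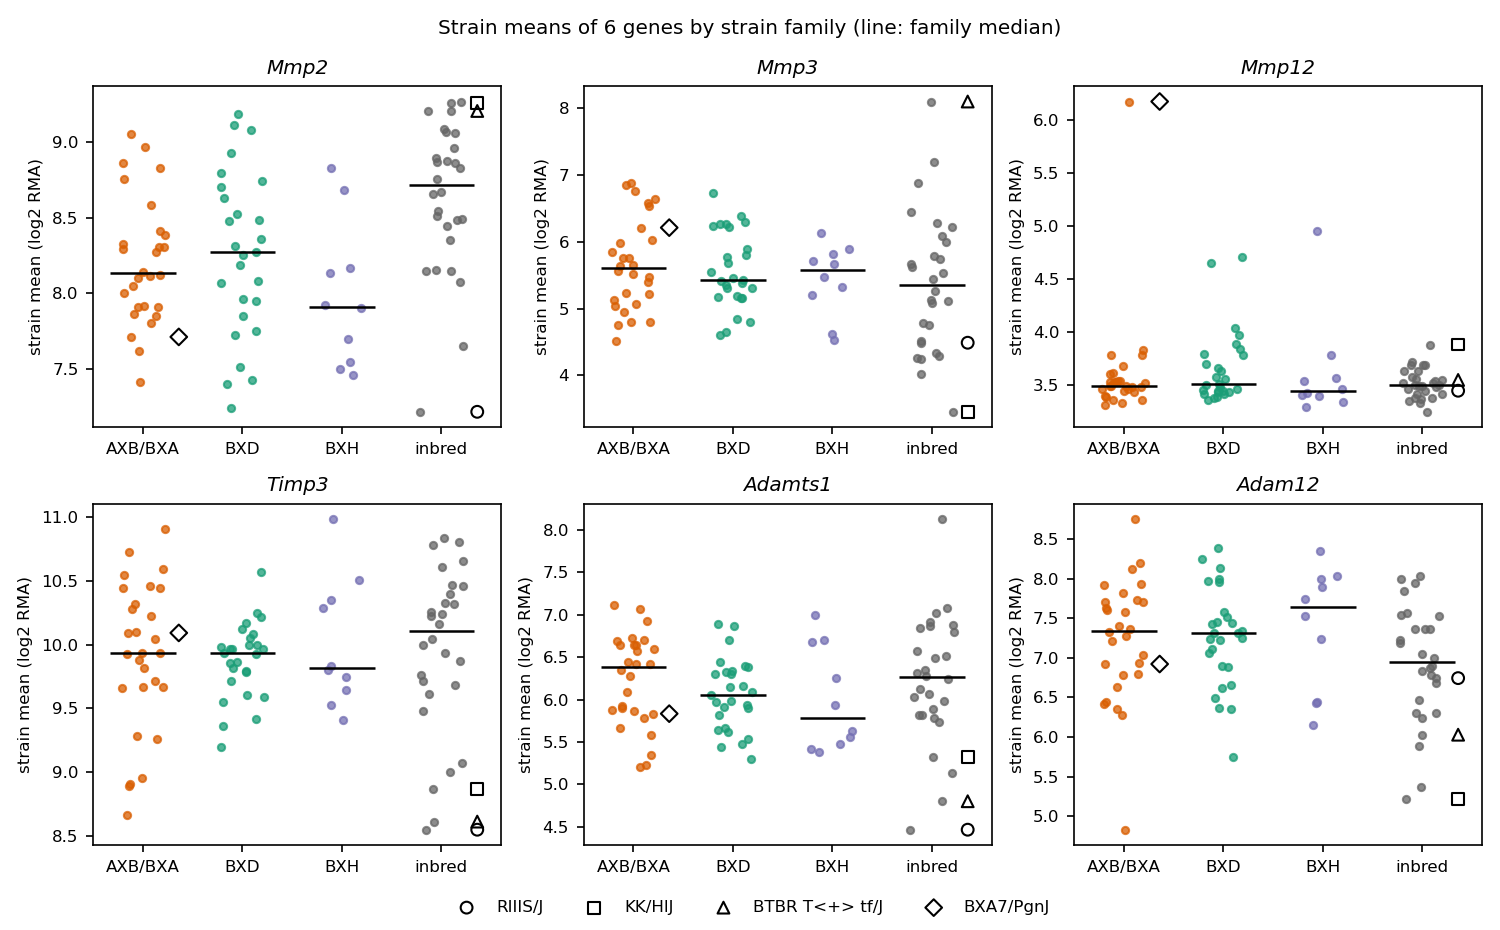
Strain means (log2 RMA values, vertical axis) of Mmp2, Mmp3, Mmp12, Timp3, Adamts1 and Adam12 in the AXB/BXA, BXD, BXH and inbred strains; each point is a strain, the line is the family median, and open symbols beside a column repeat the values of 4 named strains. RIIIS/J lies at the bottom for Mmp2, Timp3 and Adamts1, and BXA7/PgnJ stands alone for Mmp12 at 6.17.

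A few strains recurred at the ends, as the plot of strain means by family shows for 6 genes. RIIIS/J was the lowest strain for 10 of the 22 called members (Adam15, Adamts1, Adamts15, Adamts5, Adamtsl4, Mmp19, Mmp2, Mmp23, Timp2 and Timp3) and the highest for Adam10 and Adam17. BTBR T<+> tf/J was the highest for 5 (Mmp14, Mmp17, Mmp23, Mmp3 and Timp1), and KK/HlJ the lowest for Adam10, Adam9 and Mmp3. How often these strains lay at the ends among all probe sets was not counted, so the counts cannot be called particular to these genes. The RIIIS/J arrays were also high in thymocyte genes, with Dntt at 11.02 and 11.16 beside an array median of 3.20 and a thymocyte score of 4.72 and 4.89, and low in the smooth muscle gene Cnn1, at 7.44 and 6.77 beside 8.89. Replicate 1 was also high in squamous genes, with Krt4 at 11.98 and Krt13 at 11.14 beside medians of 3.21 and 3.09, and replicate 2 had the lowest endothelial and adventitial fibroblast scores of the panel, -1.39 and -1.53. The part of this in the low protease and inhibitor values was not tested; in whole-tissue RNA, fewer cells of a type and less RNA per cell cannot be told apart. Without RIIIS/J, 16 members were called, beside 37.3% of all probe sets: Adam10, Adam15, Adam9, Adamtsl4, Mmp17 and Mmp19 lost the call, and Timp2 kept it at an intraclass correlation of 0.322 and Adamts5 at 0.22.

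Of the smooth muscle genes, the actin gene Acta2 lay between 11.05 and 13.13 on every array and Myh11 between 6.94 and 10.42. The lowest arrays had 6.77 for Mylk, 5.64 for Cnn1 and 4.90 for Lmod1, and the smooth muscle score ran from -1.96 to 1.02. The skeletal muscle score ran from -4.65 to 4.22 and the cardiac muscle score from -4.86 to 2.66. Neighbouring tissue was present in some arrays, 36 of which were above 1 on the thymocyte score and 39 on the squamous epithelium score, 70 on either. Leaving out those 70 arrays, 16 of the 22 members were called, beside 32.3% of all probe sets; Adam10, Adam17, Adam9, Adamts5, Mmp17 and Mmp19 were not, with fewer arrays in the fit. Adjusting for the skeletal muscle, squamous and thymocyte scores left the same 22 called. Array medians of all probe sets lay between 4.55 and 4.88.

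Several members moved with the first principal component of all probe sets that are no member, which carried 27.7% of their variance and is turned so that Mmp17 rises with it. A component of this size is related to many probe sets by construction. How many were related to it as closely as these members was not counted. This component belonged more to arrays than to strains: its own intraclass correlation was 0.196, and of the 16 strains with an array above 50 on it, 15 had another array below. BTBR T<+> tf/J was the 1 replicated strain with all arrays above. Over the 93 strain means, Adam10 had r = -0.943 and rho = -0.721 with it, Adam9 had r = -0.869 and rho = -0.621, and Adam17 had r = -0.846 and rho = -0.641, each with permutation p of 1e-05, the smallest that 100000 resamples can give, and adjusted p of 1.69e-05 and 2.75e-05 over the 22 called members. Without the 2 farthest strains r was -0.927, -0.838 and -0.832, and within families Adam10 had values between -0.966 in BXH and -0.86 in BXD. In the opposite sense went Adam15 (r = 0.739, rho = 0.733), Mmp17 (r = 0.722, rho = 0.566) and Mmp23 (r = 0.704, rho = 0.659), with the same permutation p.

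**Figure D3:**
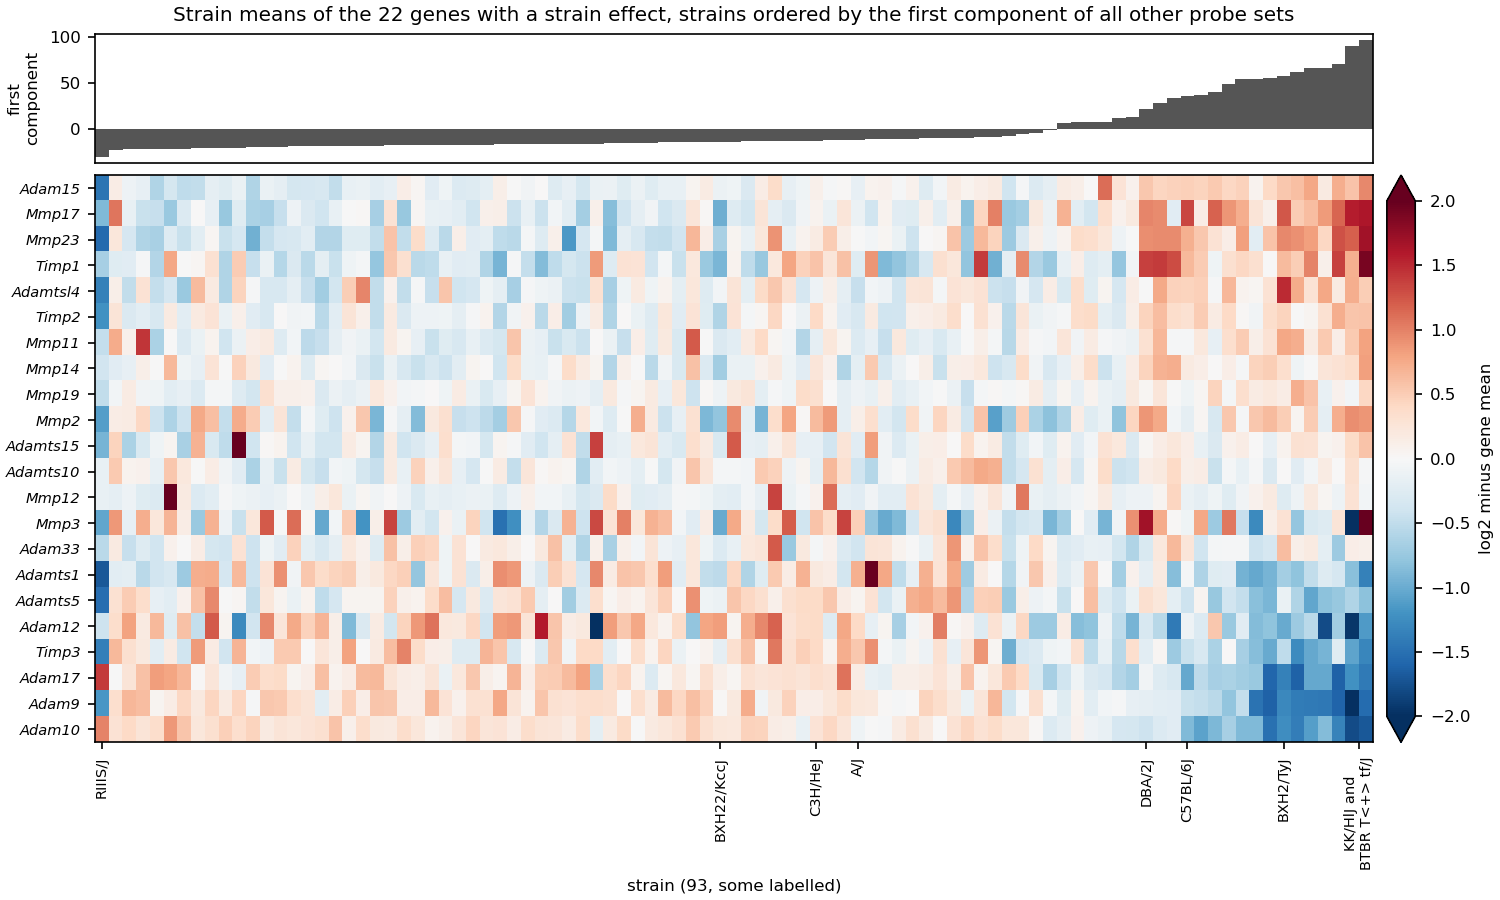
Strain means of the 22 called genes, each minus its own mean (colour, log2), over 93 strains ordered by the first component of all probe sets that are no member (top bars, arbitrary units). At the right end, where the component is high, Adam9, Adam10 and Adam17 are low and Adam15, Mmp17 and Mmp23 are high, while Mmp3 shows no trend.

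The heat map of strain means shows the 2 opposed groups at its right end, and also the genes that did not share the trend. Mmp3 (r = 0.002, rho = -0.09), Mmp12 (r = 0.01, rho = 0.19), Adamts10 (r = 0.01, rho = 0.09) and Adam33 (r = -0.04, rho = 0.03) had permutation p between 0.06 and 0.98 with the component. Timp3 (r = -0.634) and Timp2 (r = 0.504) moved in opposite directions along it. The component also went with the adipocyte score (r = 0.452, rho = 0.444, permutation adjusted p of 0.00021 and 0.00014 over 14 scores). By r alone it went with the macrophage score (r = 0.338, rho = 0.18, permutation adjusted p of 0.00481 and 0.183). By r alone it also went with the difference between the 3′ and 5′ actin control probe sets (r = -0.424, rho = -0.17, permutation adjusted p of 0.00021 and 0.183), a sign of RNA quality or labelling. The same difference for Gapdh did not pass (r = -0.029, rho = 0.206, permutation adjusted p of 0.783 and 0.1825). The part of these measures in the results was not tested. With the component as a covariate, limma's test called 23 members: Mmp17 lost the call, Mmp8 and Mmp9 gained it, and the intraclass correlation of Timp3 was 0.611 in place of 0.422 and that of Adam9 0.398 in place of 0.189.

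Each family segregates the alleles of 2 parents, so the parents were compared with C57BL/6J first, on 2 arrays of each other parent and 3 of C57BL/6J, with the spread shared over all strains. None of the 54 genes was called in any of these comparisons by limma. In all probe sets 0.645% were called in A/J against C57BL/6J, 0.524% in DBA/2J against C57BL/6J and 1.25% in C3H/HeJ against C57BL/6J. At an unadjusted p under 0.05 there were 5, 2 and 5 members, beside 8.92%, 4.69% and 13.0% of all probe sets. With 2 arrays against 3, groups often lie apart by chance alone. A lack of overlap given below is thus no test, and how many of all probe sets lay apart was not counted.

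In DBA/2J, Mmp3 had 7.27 and 7.12, against 5.69, 4.60 and 6.03 in C57BL/6J, a log2 difference of 1.76 (SE 0.49, adjusted p of 0.0862 in limma's test). The groups do not overlap, and without C57BL/6J replicate 3 the gene was called. Mmp2 had 9.39 and 9.01 in DBA/2J and 8.99 and 8.93 in C3H/HeJ, against 8.38, 8.28 and 7.80 in C57BL/6J. The differences were 1.05 (SE 0.38, adjusted p of 0.47 in limma's test) and 0.81, and all arrays of both strains lay above all of C57BL/6J. A/J lay near C57BL/6J for Mmp2, at 8.39 and 8.50, and for Mmp3, at 5.87 and 6.12.

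In A/J, 2 inhibitors went opposite ways without passing the test. Timp3 had 10.37 and 10.54 in A/J, against 9.66, 8.55 and 10.23 in C57BL/6J, a difference of 0.98, and Timp2 had 9.43 and 9.82, against 10.42, 10.24 and 10.11, a difference of -0.63. Neither pair of groups overlaps. Timp1 had 4.84 and 4.67 in A/J, 6.40 and 6.31 in DBA/2J and 5.44 and 5.68 in C3H/HeJ, against 5.75, 5.81 and 5.33 in C57BL/6J; A/J lay below and DBA/2J above every C57BL/6J array, at unadjusted limma p of 0.152 and 0.237 given the wide spread of Timp1 over the panel.

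**Figure D4:**
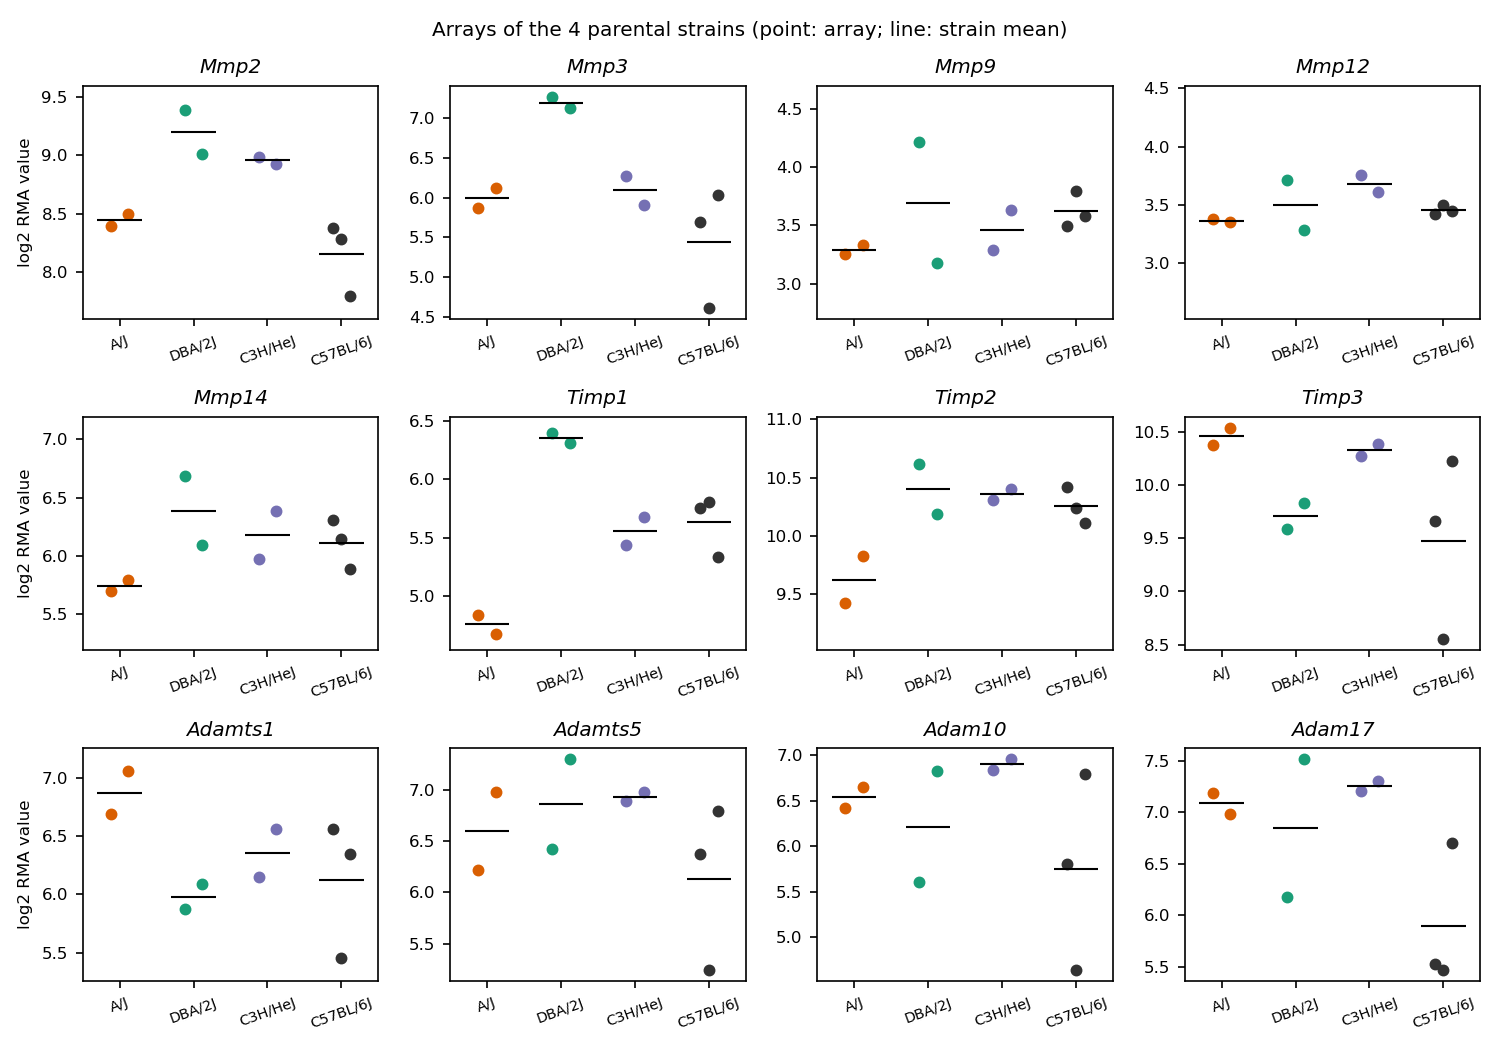
Log2 RMA values (vertical axis) of 12 genes in the arrays of A/J, DBA/2J, C3H/HeJ and C57BL/6J; points are arrays and lines are strain means. DBA/2J lies above C57BL/6J without overlap for Mmp2, Mmp3 and Timp1, while C57BL/6J itself spreads widely for Timp3, Adam10 and Adam17.

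The plot of parental arrays shows how far C57BL/6J spread for the genes that followed the first component. Its 3 arrays lay at 38.54, 87.59 and -20.08 on that component. They had 5.81, 4.63 and 6.80 for Adam10, and 5.53, 5.47 and 6.70 for Adam17, so the array low on the component was the high one for both. C3H/HeJ had 7.20 and 7.31 for Adam17, above all 3, at a difference of 1.35 (SE 0.61) that did not pass the test (adjusted p of 0.314 in limma's test). A/J, at 7.19 and 6.99, also lay above all 3 C57BL/6J arrays, and DBA/2J, at 6.18 and 7.52, overlapped their range. For Adam10, C3H/HeJ lay just above C57BL/6J with 6.84 and 6.97, A/J within its range with 6.42 and 6.65, and DBA/2J overlapped its range with 5.60 and 6.83. The part of the component in these differences was not tested.

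Among the ADAMTS genes the parents differed little. Adamts1 had 6.69 and 7.06 in A/J, 5.88 and 6.09 in DBA/2J and 6.15 and 6.56 in C3H/HeJ, against 6.56, 5.45 and 6.34 in C57BL/6J. Adamts5 had 6.22 and 6.98 in A/J, 6.43 and 7.31 in DBA/2J and 6.90 and 6.98 in C3H/HeJ, against 6.37, 5.24 and 6.80 in C57BL/6J. A/J lay wholly above C57BL/6J for Adamts1 and C3H/HeJ for Adamts5, and the other groups overlapped. Adamts15 had 5.10 and 4.90 in A/J, 5.40 and 5.12 in DBA/2J and 5.08 and 5.05 in C3H/HeJ, against 5.24, 5.48 and 5.33 in C57BL/6J, with A/J and C3H/HeJ below every C57BL/6J array. Adamts4, the other main aggrecanase, was low throughout, at 3.97 and 4.23 in A/J, 3.82 and 3.74 in DBA/2J and 3.80 and 3.68 in C3H/HeJ, against 3.58, 3.82 and 3.86 in C57BL/6J, with A/J alone lying apart, above.

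Mmp14 had 5.70 and 5.79 in A/J, 6.68 and 6.09 in DBA/2J and 5.97 and 6.39 in C3H/HeJ, against 6.31, 6.14 and 5.89 in C57BL/6J, so that A/J alone lay apart, below. Mmp23 overlapped in all parents, with 5.81 and 6.76 in A/J, 7.61 and 6.86 in DBA/2J and 6.34 and 6.59 in C3H/HeJ, against 7.39, 7.78 and 5.83 in C57BL/6J. Mmp11 had 3.82 and 4.05 in A/J, 4.68 and 4.31 in DBA/2J and 3.96 and 4.06 in C3H/HeJ, against 4.18, 4.30 and 4.03 in C57BL/6J. Only DBA/2J lay apart for Mmp11, above. The white cell genes were low in all 4 parents. Mmp12 had 3.38 and 3.35 in A/J, 3.71 and 3.29 in DBA/2J and 3.76 and 3.61 in C3H/HeJ, against 3.43, 3.50 and 3.45 in C57BL/6J. Mmp9 had 3.25 and 3.33 in A/J, 4.22 and 3.17 in DBA/2J and 3.28 and 3.63 in C3H/HeJ, against 3.49, 3.79 and 3.58 in C57BL/6J. A/J lay just below C57BL/6J for both, and C3H/HeJ just above it for Mmp12.

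Timp2 had 10.61 and 10.18 in DBA/2J and 10.31 and 10.40 in C3H/HeJ, which overlap C57BL/6J. Timp3 had 9.59 and 9.83 in DBA/2J, within the C57BL/6J range, and 10.27 and 10.39 in C3H/HeJ, just above it. Adam12 overlapped throughout, with 7.57 and 7.55 in A/J, 6.16 and 7.52 in DBA/2J and 7.62 and 7.46 in C3H/HeJ, against 7.11, 6.28 and 7.77 in C57BL/6J. For Adam33, A/J and DBA/2J lay below C57BL/6J: it had 4.25 and 5.04 in A/J, 4.90 and 4.52 in DBA/2J and 4.73 and 5.23 in C3H/HeJ, against 5.13, 5.57 and 5.07 in C57BL/6J. None of these differences passed limma's test.

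Within the families the members were called about as often as other probe sets. In AXB/BXA, 27 replicated strains, limma called 2 members, Mmp3 and Timp3, beside 3.81% of all probe sets. In BXD, 22 replicated strains, it called 9, beside 15.1%. In BXH, 9 replicated strains, it called none, beside 1.26%. At an unadjusted p under 0.05 there were 6, 12 and 12 members in AXB/BXA, BXD and BXH, beside 17.5%, 33.3% and 12.4% of all probe sets.

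The AXB/BXA strain means of Mmp3 lay between 4.52 in AXB8/PgnJ and 6.88 in BXA4/PgnJ, with an intraclass correlation of 0.528 (0.225 to 0.746) and an adjusted p of 0.0143 in limma's test. Of these 28 strains, 11 lay below both parents, 9 between and 8 above both. Timp3 lay between 8.66 in AXB23/PgnJ and 10.91 in BXA12/PgnJ, with 0.467 and an adjusted p of 0.0397 in limma's test, and most strains, 17, lay between the parents. Timp3 lost this call with the block of sample numbers as a covariate, without the 70 arrays above 1 on the squamous or thymocyte score, and without AXB19a/PgnJ and AXB19b/PgnJ.

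In BXD the called genes were Mmp2, Mmp11, Mmp12, Timp1, Adamts1, Adamts5, Adam9, Adam10 and Adam12. Mmp12 had the highest intraclass correlation, 0.599 (0.272 to 0.807), with strain means between 3.35 in BXD8/TyJ and 4.70 in BXD9/TyJ. With both parents near the low end, 14 strains lay above both, 3 between and 10 below both. Mmp2 had 9.28 and 9.09 in BXD9/TyJ, the highest strain, and 7.30 and 7.18 in BXD28/TyJ, the lowest, with 0.529 and an adjusted p of 0.0141 in limma's test. No BXD strain mean lay above the DBA/2J mean, 16 lay between the parents and 11 below both, C57BL/6J being the lower parent. Adamts5, with 0.571, had 13 strains between the parents, 11 above both and 3 below both. Mmp3, the gene with the largest parental difference, was not called within BXD (adjusted p of 0.263 in limma's test).

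For other BXD genes the strains did not fall around their parents. Timp1 was below both parents in 23 of 27 strains, with 5.66 and 7.11 in BXD22/TyJ, the highest, and 4.27 and 3.78 in BXD28/TyJ, the lowest. Adam10 was above both parents in 26 of 27 strains and Adam9 in 22, and BXD40/TyJ, at 5.60 and 5.52, was the one strain low for Adam10. DBA/2J replicate 1 and 2 of the 3 C57BL/6J arrays lay at 54.3, 38.5 and 87.6 on the first component, on which Adam10 and Adam9 are low and Timp1 is high; the part of this in the position of the parents was not tested. When those 70 arrays were left out, 3 of the 9 calls were kept (Adam12, Mmp11 and Mmp12), with fewer strains tested, and with the 2 BXD32/TyJ arrays included 3 were kept (Mmp11, Mmp12 and Mmp2). With the first component as a covariate 6 were kept, and Adam10, Adam12 and Adamts1 lost the call.

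Between families, 1 mean per strain, limma called 2 members, both lower in AXB/BXA than in BXD, beside 2.22% of all probe sets in either direction, 0.909% higher and 1.31% lower. Adamts10 averaged 6.15 ± 0.22 in 28 AXB/BXA strains and 6.45 ± 0.29 in 27 BXD strains (SD), a difference of -0.31 (SE 0.07, adjusted p of 0.00574 in limma's test). Adam1a, a sperm protein near the array's lower end, averaged 3.54 ± 0.15 and 3.71 ± 0.14, a difference of -0.17. Neither was called without the 70 arrays high on those scores, and Adam1a was not called with the actin difference as a covariate. Adamts5 averaged 6.39 ± 0.41 in AXB/BXA and 6.75 ± 0.45 in BXD, a difference of -0.36 that missed the threshold (adjusted p of 0.0592 in limma's test). Adamts5 was called under 4 alternatives: with only probe sets of a mean of at least 5, with strain as a random block, without the BXD strains that carry Cep290 or Tlr4 mutations, and with the first component. No member was called in AXB/BXA against BXH or in BXD against BXH by limma. In the first, 0.322% of all probe sets were called (0.0761% higher and 0.246% lower), and 2 members had an unadjusted p under 0.05, beside 7.28% of all probe sets. In the second, 0.184% were (0.0537% higher and 0.130% lower), and 3 members had one, beside 5.21%. The strains of a family are related to each other, and the families overlap for both called genes.

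Enzymes and inhibitors that act on one another were then set side by side over the 93 strain means, 9 planned pairs in all, with permutation tests adjusted over the 9. The 3 partners of pro-MMP2 activation moved together. Mmp2 and Timp2 had r = 0.581 and rho = 0.554, Mmp14 and Timp2 had r = 0.611 and rho = 0.637, and Mmp2 and Mmp14 had r = 0.463 and rho = 0.451. The permutation p of r was 1e-05 for each, the smallest possible, and 2.25e-05 adjusted, and that of rho at most 2e-05 and 3.6e-05 adjusted. Without the 2 strains farthest on the horizontal measure r was 0.572, 0.588 and 0.434. Within AXB/BXA, BXD, BXH and inbred strains the Mmp14 and Timp2 values were 0.58, 0.562, 0.882 and 0.599, and those of Mmp2 and Mmp14 were 0.178, 0.364, 0.828 and 0.536. Sample numbers in the labels fall into 2 blocks, and Mmp2 and Timp2 had 0.629 and 0.482 within them. Over the 93 strain means all 3 genes were positively related to the first component too. For Mmp2 this did not hold throughout: its r was 0.479 in AXB/BXA, -0.019 in BXD, 0.55 in BXH and 0.322 in inbred strains. Within the 2 blocks it was 0.456 and 0.035.

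**Figure D5:**
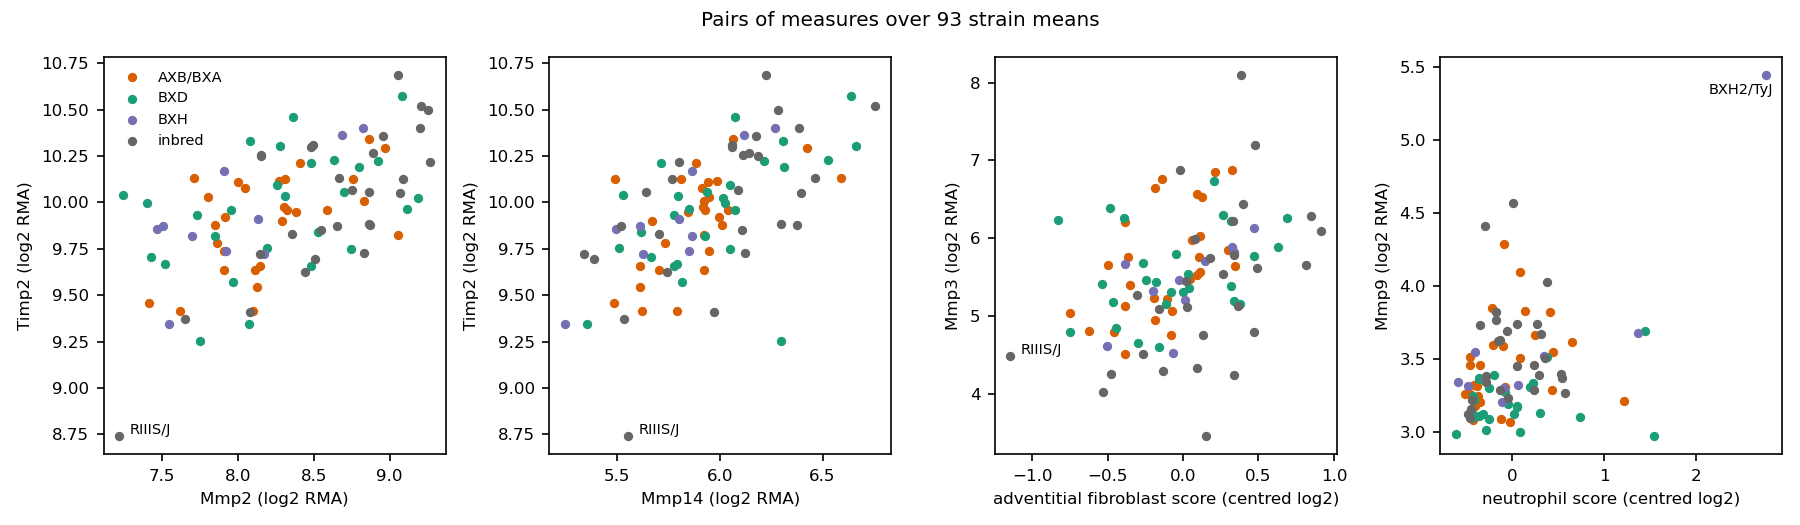
Pairs of measures over 93 strain means, coloured by strain family: Timp2 against Mmp2 and against Mmp14 (log2 RMA), Mmp3 against the adventitial fibroblast score and Mmp9 against the neutrophil score (centred log2). The first 3 clouds slope upward at r = 0.581, 0.611 and 0.38, and BXH2/TyJ stands alone at the upper right of the last.

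Adam10 and Adam17, which share many substrates, had r = 0.888 and rho = 0.71 (permutation p of 1e-05 each, 2.25e-05 and 3e-05 adjusted), and 0.88 without BTBR T<+> tf/J and KK/HlJ; both followed the first component closely. Mmp3 rose with the adventitial fibroblast score, r = 0.38 and rho = 0.415 (permutation p of 0.00018 and 2e-05, 0.000324 and 3.6e-05 adjusted), with 0.351 without the 2 farthest strains and positive values in all families, from 0.256 in BXD to 0.691 in BXH. Mmp9 and the neutrophil score had r = 0.421 and rho = 0.316 (permutation p of 0.00093 and 0.00207, 0.00139 and 0.00266 adjusted), but it rests on BXH2/TyJ: without that strain r was 0.158 (permutation adjusted p of 0.131). BXD42/TyJ went against the relation, with the lowest strain mean for Mmp9, 2.97, and a neutrophil score of 1.55, and without both strains r was 0.234. Within the blocks of sample numbers r was 0.0119 and 0.639.

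The macrophage score went weakly with Mmp12 (r = 0.227, rho = 0.27, permutation p of 0.0298 and 0.00903, 0.0336 and 0.0102 adjusted) and with Adam8 (r = 0.302, rho = 0.321, permutation p of 0.00312 and 0.00188, 0.00401 and 0.00266 adjusted). Without the 2 farthest strains these were 0.216 and 0.244, and within the blocks 0.251 and 0.11 for Mmp12 and 0.433 and 0.148 for Adam8. Adam12, a muscle-lineage ADAM, did not rise with the skeletal muscle score (r = -0.212, rho = -0.198, permutation p of 0.0415 and 0.0568, the same adjusted). Without the 2 farthest strains its r was -0.19, and within the blocks -0.181 and -0.229.

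Genes that act on these enzymes from outside the family were read from a list of 32 activators, regulators and substrates, of which 27 were measured. Of the 27, 15 were called for strain, beside the same 46.5% of all probe sets, and their median intraclass correlation was 0.227. Plau, the urokinase that starts plasmin-driven MMP activation, had the highest, 0.678, between 5.76 in NON/ShiLtJ and 3.12 in AXB2/PgnJ. Lrp1, the receptor that clears many proteases and TIMPs, had 0.493, and Reck, a membrane inhibitor of MMPs, 0.297; both were lowest in RIIIS/J, at 7.11 and 4.10. Furin, the convertase that cuts the proforms of membrane-type MMPs, ADAMs and ADAMTSs, had 0.227, between 7.91 in BTBR T<+> tf/J and 6.06 in RIIIS/J. Tspan14 and Tspan15, tetraspanins that carry Adam10 to the cell surface, had 0.527 and 0.427. The versican gene Vcan was just called, at 0.19, while the aggrecan gene Acan was not.

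The choice of probe set bears on 18 members that had several. Of the 10 of these that were called, 6 had all their other probe sets called as well (Adam10, Adam12, Adam17, Adamts5, Mmp23 and Timp2), and over the 10 it was 14 of 19 other probe sets. No gene was called by a dimmer probe set and not by the brightest. Over strain means the probe sets of Adam12 had r = 0.921 with each other and those of Mmp9 0.858, whereas those of Adam1a had -0.108, the lowest of the 18. Across the 27 alternative settings for the strain effect, 12 members kept their call in every one that tested them. They were Adam12, Adam33, Adamts1, Adamts10, Adamts15, Mmp11, Mmp2, Mmp23, Mmp3, Timp1, Timp2 and Timp3. Mmp11 and Timp1, with a mean below 5, were tested in 26 of the settings. The setting without ADAMTS-like genes could not change the call of any other member.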

How the data were processed

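The deposited values are log2 intensities of an Affymetrix mouse array, 1 table for the 188 arrays, made by the authors with GCOS and RMA per the submitters' processing notes; software versions and the build were not given in the sources used here. Of 22416 probe sets, 89 controls were set aside and 22327 tested; 17783 had 1 symbol in the platform annotation, 284 had several and 4260 were not listed. Strain groups came from the labels.

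Strain effects, parental contrasts and family contrasts (1 mean per strain) were fitted with limma 3.58.1 in R 4.3.3, adjusted by Benjamini-Hochberg over all probe sets. Intraclass correlations are one-way variance components with 95% intervals. Correlations used strain means and 100000 two-sided resamples in Python 3.11.15. Cell-type scores average centred log2 values of marker genes. The fits were tested on simulated data, where they missed most weak strain effects and many of the smaller parental differences. Only a small share of the simulated probe sets held effects, which makes the adjusted threshold stricter than in the real strain fit. The share of strain effects that the real fit missed thus cannot be read from it. Members, gene lists and tests were chosen with earlier results of these data known. Any member could be named; parental arrays were given for called members with the 8 highest intraclass correlations or the 8 largest among-strain SDs, the TIMPs and 10 further genes. Alternatives covered BXD32/TyJ, number blocks, arrays with a squamous or thymocyte score above 1, scores, probe set choice, a mean of at least 5, moderation, centring and left-out strains or arrays; those without single strains (RIIIS/J, BTBR T<+> tf/J, KK/HlJ, BXH2/TyJ, also for the pairs, BXA7/PgnJ and, within BXD, BXD20/TyJ), with the first component and with the actin difference were chosen after seeing the data. Timp4 and genes measured only by probe sets with several symbols were not analysed here. Sequences are RefSeq windows of build GRCm38.p6, matched by symbol. Depth does not apply to arrays; their number limits the precision.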

Additional observations from a re-analysis of the deposited data

Results flagged for a closer look

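Within groups of 4 to 10 values, the highest or lowest value of a called gene stood far from the others by Dixon's test in 12 of 88 groups; chance does this in about 5 percent of groups. Of these, 5 concern the 10 BXH strain means. BXH2/TyJ was lowest for Adam10, at 5.39 with the next strain at 6.35, and for Adam9, at 6.63 with the next at 7.88. The same strain was highest for Mmp11, at 4.97 with the next at 4.40, and for Mmp17, at 5.66 with the next at 4.60; its replicate 1 had 130.7 on the first component and replicate 2 had -15.3, and the part of this was not tested. BXH19/TyJ was highest for Mmp12, at 4.95 with the next at 3.78.

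The other 7 concern single arrays of strains with 4 arrays. In AXB19b/PgnJ, replicate 1 was lowest for Adamts10 (5.89, next 6.26) and highest for Mmp14 (6.33, next 5.97), replicate 2 was lowest for Mmp23 (5.52, next 6.28), and replicate 3 was highest for Adamts15 (5.52, next 4.94). In BXD19/TyJ, replicate 2 was highest for Adam12 (7.58, next 7.39) and for Adam9 (8.12, next 7.95). In BXH4/TyJ, replicate 2 was lowest for Adamts15 (4.81, next 4.95).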

How the results depend on the processing

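Direction was followed for the planned pairs and for some members in the comparisons between groups. Those members had an unadjusted limma p under 0.05 in a parental comparison or in AXB/BXA against BXD. None of these results changed direction under the alternatives run. The strain tests, over the panel and within families, have no direction. The count of 22 members called for strain lay between 20 and 22 when each parental array was left out in turn, and was 14 with only the strains whose arrays have consecutive sample numbers, beside 30.7% of all probe sets. Leaving out either array of A/J, DBA/2J or C3H/HeJ drops that strain from the strain test. Each of these strains thus gives the same strain fit 2 times among the 27 alternatives. Of the members, 10 lost the call under 1 or more of 27 alternatives: Adam9 under 14, Mmp17 under 9, Adam10 under 6, Adamtsl4 and Mmp19 under 5 each, Adam15, Adam17 and Mmp12 under 2 each, and Adamts5 and Mmp14 under 1 each. Within AXB/BXA the 2 calls were 1 (Mmp3, with Timp3 lost) with the number block as a covariate, 1 without the 70 arrays above 1 on the squamous or thymocyte score, 1 without AXB19a/PgnJ and AXB19b/PgnJ, and 4 with the first component. Within BXD the 9 calls were 3 with BXD32/TyJ, 3 without the high arrays and 6 with the first component, and no strain there spans both number blocks, so that fit was not run. Within BXH there were 2 in place of 0 with the scores as covariates. DBA/2J against C57BL/6J gave 0 to 1 without single arrays, the 1 being Mmp3 without C57BL/6J replicate 3. AXB/BXA against BXD gave 0 without the high arrays, 1 (Adamts10) with the actin difference and 4 with the first component (Adam15 and Adamts5 added), in place of 2. BXD against BXH gave 1, Mmp9, with the first component, in place of 0. Without the high arrays (75 strains), the macrophage score and Mmp12 had r = 0.201 (permutation adjusted p of 0.0861) and the skeletal muscle score and Adam12 r = -0.225 (0.0580). In the 28 inbred strains alone r was 0.290 for the macrophage score and Mmp12, 0.141 for that score and Adam8, 0.0815 for the neutrophil score and Mmp9, and -0.237 for the skeletal muscle score and Adam12. Without BXH2/TyJ the neutrophil score and Mmp9 had r = 0.158 (permutation adjusted p of 0.131). The causes were not tested, beyond the smaller number of arrays or strains where some were left out. No paired analysis was possible because the labels only number the arrays, with no number shared as a pair between strains.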
